A study of Mus musculus with 9 samples.

Results

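The genes described here are *Cbr1*, *Cbr3*, *Hlcs*, *Pigp* and *Slc5a3*, 5 genes that code for metabolic enzymes or a transporter and lie within the duplication of Dp1Tyb mice. They were chosen by name and function and by position, with earlier results of these data known. They are 5 of the 43629 genes listed in the count table. RNA sequencing (RNAseq) was carried out on 9 cultures of mouse embryonic fibroblasts (MEFs), 4 wild-type (WT) and 5 Dp1Tyb, each grown from a single embryo at stage E14.5, without its head and inner organs, of a strain whose labelled name gives C57BL/6J as the background and 129P2 as the donor. Dp1Tyb embryos had the genotype Dp(16Lipi-Zbtb21)1TybEmcf, a second copy in tandem of the chromosome 16 segment from *Lipi* to *Zbtb21* (GRCm38, chr16:75540514-97962622), so that they carried 3 copies of each gene in it where WT littermates carried 2. The labels name no other allele or agent that differed between the groups, and all cultures were grown in the same medium with serum. They do not say whether the duplicated segment also carries 129P2 alleles. Effects of such alleles and of copy number could not be told apart here. The description labels also carry a set number, 1 for replicate 1 of either genotype and 2 for the other 7 cultures, without saying what a set is.

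The 5 genes belong to 4 pathways. *Cbr1* and *Cbr3* code for carbonyl reductases, cytosolic enzymes that use NADPH to reduce carbonyl groups of quinones, prostaglandins and drugs to alcohols. *Hlcs* codes for holocarboxylase synthetase, which attaches biotin to the carboxylases of fatty acid synthesis, gluconeogenesis and amino acid breakdown. *Pigp* codes for a subunit of the enzyme complex in the endoplasmic reticulum that starts the synthesis of glycosylphosphatidylinositol (GPI) anchors, the lipids that hold many proteins on the cell surface. *Slc5a3* codes for SMIT1, which carries sodium and myo-inositol into cells and is known to be induced when cells are placed in hypertonic medium.

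All 5 genes had a higher mean level in Dp1Tyb than in WT MEFs, by between 1.36-fold for *Pigp* and 1.53-fold for *Cbr3* and *Hlcs*. In normalised counts (TMM-scaled), the lowest Dp1Tyb culture was higher than the highest WT culture for *Cbr1*, *Cbr3*, *Hlcs* and *Pigp*. The same held for 42 (50%) of the other 84 tested genes of the duplicated region and for 0.686% of all tested genes. For *Pigp* this rested on the scaling, since the groups overlapped when counts were scaled to the total counts of each culture. Only *Cbr1* passed the test across all genes, edgeR's quasi-likelihood test, two-sided, with Benjamini-Hochberg adjustment over 14567 genes and a threshold of 0.05. Of the other 84 genes of the region, 21 (25%) passed it, and 0.165% of all tested genes were called higher in Dp1Tyb. *Slc5a3* had 2 Dp1Tyb cultures above all WT cultures and 3 within their range. In bulk cultures, fewer cells of a type and less RNA per cell cannot be told apart.

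Sequences are shown first for the places where these genes touch a paralogue or a neighbour, since reads from such places could be counted for either gene. *Cbr1* and *Cbr3* lie 72.7 kb apart on the plus strand, at chr16:93605853-93610505 and chr16:93683215-93690990 (GENCODE M21, GRCm38). Their coding sequences are 831 bases each and are identical at 645 of 829 aligned bases, or 77.8%. Of all stretches of 100 bases, the length of the reads, the pair below is the most alike, with 6 mismatches, which are in capitals. Both run from base 146 to base 245 of the coding sequence and lie in the first exon of the transcript, *Cbr1* at chr16:93608111-93608210 and *Cbr3* at chr16:93683470-93683569. They were read from the GENCODE M21 transcripts.
Cbr1: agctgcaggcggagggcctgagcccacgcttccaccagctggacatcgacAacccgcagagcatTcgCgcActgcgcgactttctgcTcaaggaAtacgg
Cbr3: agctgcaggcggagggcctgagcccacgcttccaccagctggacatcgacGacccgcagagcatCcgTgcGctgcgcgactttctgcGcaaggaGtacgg
The first 50 bases of this stretch are the longest run shared by both transcripts. Of the 1071 stretches of 100 bases in the *Cbr3* transcript, 0 occurred whole in that of *Cbr1*. The study discarded reads that aligned to several places, and counts of both genes are uncertain to the extent that reads with mismatches were placed on the paralogue.

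*Slc5a3* (chr16:92058322-92087473, plus strand) starts together with *Mrps6*, which codes for a protein of the small mitochondrial ribosomal subunit. The RefSeq table of GRCm38.p6 places the *Mrps6* start 14 bases after that of *Slc5a3*. GENCODE M21 has the opposite order, with the *Mrps6* gene starting at chr16:92058270, before *Slc5a3*. The sequence of chr16:92058072-92058336, plus strand, is given up to the RefSeq *Mrps6* start, with capitals from the *Slc5a3* start on. By the RefSeq starts, both genes lie directly behind the same sequence. By GENCODE M21, the last lower-case bases already belong to *Mrps6*.
Slc5a3: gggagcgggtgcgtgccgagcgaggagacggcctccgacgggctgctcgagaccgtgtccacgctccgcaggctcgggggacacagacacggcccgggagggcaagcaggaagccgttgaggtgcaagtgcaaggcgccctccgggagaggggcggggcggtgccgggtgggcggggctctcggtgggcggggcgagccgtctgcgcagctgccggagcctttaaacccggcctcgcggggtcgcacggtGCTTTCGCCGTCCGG
In the annotation, 159 exonic bases belong to both genes on the same strand, 1.46% of the exons of *Slc5a3* and 10.4% of those of *Mrps6*. A read within them cannot be assigned to one of the genes. The whole of *Slc5a3* lies within the span of *Mrps6*, chr16:92058270-92112227. Its other exonic bases thus lie in *Mrps6* introns, and reads of unspliced *Mrps6* RNA there could be counted for *Slc5a3*. Their share was not measured.

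*Pigp* (chr16:94358763-94371842, minus strand) faces away from *Ttc3*, on the plus strand, which codes for an E3 ubiquitin ligase. RefSeq gives *Pigp* 4 start sites. Those at 29, 189 and 409 bases from the *Ttc3* start lie to its left, so that the genes run apart. The one at 276 bases lies to its right, so that *Pigp* runs from there back across the *Ttc3* start on the other strand. The stretch chr16:94370680-94370769, plus strand, is shown with capitals from the nearest *Pigp* start, at the left, to the *Ttc3* start, at the right.
Pigp and Ttc3: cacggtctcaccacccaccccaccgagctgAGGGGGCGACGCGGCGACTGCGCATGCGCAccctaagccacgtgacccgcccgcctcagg
Exons of *Pigp* and *Ttc3* share 326 bases on opposite strands, 16.4% of the exons of *Pigp* and 2.01% of those of *Ttc3*. The libraries were made with a stranded kit, but the strand option of the counting is not given in the sources used here, and without it reads from the shared bases cannot be told apart. A pseudogene, *Gm15310*, lies on the strand of *Pigp* over 234 bases, 11.8% of its exons, and had 0 counts in every culture. A read within these bases cannot be assigned to one of the genes, so the 0 counts do not show whether *Pigp* lost reads there. *Hlcs* (chr16:94128882-94313571, minus strand) shares no exonic base with another annotated gene and lies 45.2 kb from *Pigp*.

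The windows of 300 bases around the RefSeq starts, 250 before and 50 after, differed in base composition. GC content was 44.0% for *Cbr1*, 60.0% for *Cbr3*, 67.7% and 67.3% for both starts of *Hlcs*, between 68.3% and 75.3% for the starts of *Pigp* and 73.3% for *Slc5a3*, beside a median of 52.7% over 32851 promoters. Motifs were searched on both strands by their letters. TGACNNNGC, the core of the antioxidant response element, and TATAAA occurred in none of the 9 windows of the 5 genes, and they occurred in 12.4% and 13.6% of all promoters. TGGAAA, the core of the tonicity element, occurred in 1 of the 9 windows, that of the second *Hlcs* start, and in 21.4% of all promoters. These are matches of letters in these windows only.

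Libraries held 25571442 to 30009361 counts for WT and 24804539 to 26782380 counts for Dp1Tyb. The 9 fibroblast markers, among them *Col1a1*, *Dcn* and *Pdgfra*, were all tested and 0 were called, and their normalised counts summed to 811000 to 1210000 per WT culture and to 606000 to 1260000 per Dp1Tyb culture. The lowest fibroblast sum of each genotype was that of replicate 2, but not every marker was lowest there. *Vim* had its highest counts of each genotype in replicate 2, 122380 and 120145. *Thy1* was lowest among WT cultures in replicate 1, at 14446 counts against 27522 in WT replicate 2. Skeletal muscle markers summed to 1580 in WT replicate 2 and 5950 in Dp1Tyb replicate 2 and to between 61.5 and 461 in the other 7 cultures. Nearly all of this was *Acta1*, with 1517 and 5457 counts in those 2 cultures, while *Myod1* and *Myog*, which define the lineage, had at most 3 counts in every culture. Macrophage markers summed to between 1490 and 5440 in WT, to 530 and 377 in Dp1Tyb replicates 1 and 2 and to between 3410 and 7670 in the other 3 Dp1Tyb cultures. Schwann cell markers ranged from 499 to 972 for WT and from 175 to 518 for Dp1Tyb, lower in Dp1Tyb on average, and the part of this in the values below was not tested. Markers of endothelium, epithelium and neurons summed to at most 454, 406 and 1870, and those of red blood cells were at the floor of 3 counts in every culture. Nearly all of the neuron sum was *Tubb3*, while *Elavl4* had at most 25 counts and *Snap25* at most 4. The endothelial sum was mainly *Kdr* and *Tek*, with at most 15 counts of *Pecam1* and 26 of *Cdh5*.

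**Figure D1:**
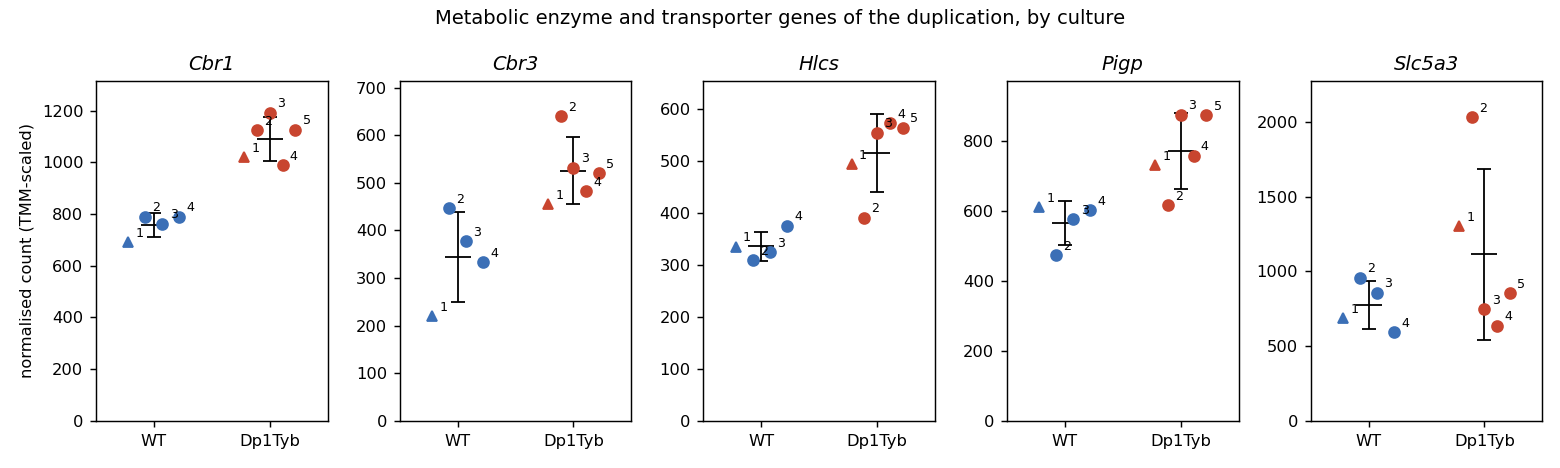
Normalised counts (TMM-scaled, vertical axes from 0) of the 5 genes in each culture, with WT in blue and Dp1Tyb in red, replicate numbers beside the points, triangles for set 1, circles for set 2, and black bars for the mean ± SD (n = 4 WT and 5 Dp1Tyb). All Dp1Tyb points lie above all WT points for *Cbr1*, *Cbr3*, *Hlcs* and *Pigp*, as they did for 50% of the other 84 tested genes of the region. *Slc5a3* ranges from 636 to 2031 in Dp1Tyb.

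*Cbr1* (ENSMUSG00000051483) had normalised counts of 692, 790, 762 and 789 in WT replicates 1 to 4 and of 1019, 1124, 1192, 988 and 1126 in Dp1Tyb replicates 1 to 5. The genotypes were far apart for their spread, with a gap of the lowest Dp1Tyb culture to the highest WT culture that exceeded the range within WT. The means were 758 ± 46.0 (SD, n = 4) and 1090 ± 84.1 (SD, n = 5). The fold change was 1.44 (95% interval 1.28 to 1.62), or 0.52 on the log2 scale with a standard error of 0.0772 (edgeR, adjusted p = 0.0395). Higher calls at this threshold made up 0.165% of the genes tested, and *Cbr1* was 1 of 5 here. In an exact permutation test, two-sided, on log2(normalised count + 1), p was 0.00794, the smallest that 4 against 5 cultures allow. Within set 2 the difference of mean log2 values was 0.50 (exact permutation test, p = 0.0286, the smallest that 3 against 4 allow), and between both cultures of set 1 it was 0.56. The call was narrow. Without any single one of the 9 cultures, the adjusted p rose above the threshold, to between 0.0627 without Dp1Tyb replicate 4 and 0.211 without WT replicate 3, while the log2 fold change stayed between 0.48 and 0.56.

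*Cbr3* (ENSMUSG00000022947) had 220, 447, 377 and 333 normalised counts in WT and 455, 640, 532, 482 and 520 in Dp1Tyb. The highest WT culture, replicate 2, and the lowest Dp1Tyb culture, replicate 1, were 447 and 455, so that the groups did not overlap but touched. The means were 344 ± 95 (SD, n = 4) and 526 ± 70.7 (SD, n = 5). The fold change was 1.53 (95% interval 1.14 to 2.05), 0.61 on the log2 scale with a standard error of 0.19, and did not pass the test across all genes (edgeR, adjusted p = 0.982). The exact permutation test for this gene alone gave p = 0.00794. WT replicate 1, of set 1, was the lowest culture, and the log2 difference was 1.04 between the cultures of set 1 and 0.50 within set 2 (exact permutation test, p = 0.0286).

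The relation between the paralogues varied from culture to culture. The ratio of *Cbr3* to *Cbr1* normalised counts was 0.319, 0.566, 0.495 and 0.422 in WT and 0.447, 0.569, 0.447, 0.489 and 0.463 in Dp1Tyb. The Dp1Tyb ratios all lay within the WT range but for that of replicate 2, which was just above it. The log2 ratio differed by 0.12 between the genotypes (exact permutation test, two-sided, p = 0.548, adjusted p over 3 ratios = 0.821), and the sign of this difference turned within set 2 and without WT replicate 1, to -0.0039 and -0.03. Their levels per length depended on the length used. Over all annotated exons, 2554 bases for *Cbr1* and 1254 for *Cbr3*, WT levels were 11.4 ± 0.368 and 10.5 ± 2.68 RPKM (counts per kilobase, scaled to the total counts of the culture, SD, n = 4). Over the longest protein-coding transcript, 1237 and 1170 bases, an alternative added after the data were seen, they were 23.6 ± 0.742 and 11.2 ± 2.88 RPKM (SD, n = 4) in WT and 32.9 ± 2.59 and 16.7 ± 2.01 RPKM (SD, n = 5) in Dp1Tyb. On that scale *Cbr1* was above *Cbr3* in every culture. *Cbr3* had the larger spread. Its pooled SD within genotypes was 0.317 log2 units, beside 0.103 for *Cbr1*, which placed them at the 66.3 and 13.2 percentiles of all tested genes.

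*Hlcs* (ENSMUSG00000040820) had 335, 309, 324 and 375 normalised counts in WT and 494, 391, 554, 572 and 564 in Dp1Tyb. WT cultures were close together, and Dp1Tyb replicate 2 was low among its group and only just above WT replicate 4. Scaled to total counts instead, these 2 cultures were both at 1.59 RPKM. The means were 336 ± 28.1 (SD, n = 4) and 515 ± 75.8 (SD, n = 5). The fold change was 1.53 (95% interval 1.26 to 1.86), 0.62 on the log2 scale with a standard error of 0.125 (edgeR, adjusted p = 0.231), and the exact permutation test for this gene alone gave p = 0.0159. Within set 2 the log2 difference was 0.62 (exact permutation test, p = 0.0571, above the smallest possible), and in set 1 it was 0.56. The call depended on the tool and on 1 culture. DESeq2 with its defaults gave an adjusted p of 0.00306, and edgeR without Dp1Tyb replicate 2 gave a log2 fold change of 0.70 with an adjusted p of 0.0223. DESeq2 called *Cbr1* and *Hlcs*, 2 of 5, and called 0.295% of the genes with an adjusted p higher in Dp1Tyb.

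*Pigp* (ENSMUSG00000022940) had 610, 474, 577 and 602 normalised counts in WT and 731, 617, 875, 758 and 873 in Dp1Tyb. Replicate 2 was the lowest culture of either genotype, and that of Dp1Tyb lay next to the highest WT culture. Scaled to total counts instead, Dp1Tyb replicate 2 was at 11.3 RPKM, below WT replicates 1 and 4 at 12.3 and 11.5 RPKM. The means were 566 ± 62.9 (SD, n = 4) and 770.5 ± 108 (SD, n = 5). The fold change was the smallest of the 5, 1.36 (95% interval 1.13 to 1.64), or 0.45 on the log2 scale with a standard error of 0.122 (edgeR, adjusted p = 0.726). The exact permutation test for this gene alone gave p = 0.0159, the difference within set 2 was 0.50 (exact permutation test, p = 0.0571) and that in set 1 was 0.26.

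*Ttc3*, which runs away from *Pigp* on the other strand, had 5654, 3353, 4059 and 5043 normalised counts in WT and 6420, 4976, 6263, 6096 and 6283 in Dp1Tyb. Replicate 2 was again the lowest of each genotype, and in Dp1Tyb it fell within the WT range. The log2 fold change of *Ttc3* was 0.41 with a standard error of 0.15 (edgeR, adjusted p = 0.9997). The ratio of *Pigp* to *Ttc3* counts ranged from 0.108 to 0.142 for WT and from 0.114 to 0.140 for Dp1Tyb. The log2 ratio differed by 0.01 between the genotypes (exact permutation test, two-sided, p = 0.889, adjusted p = 0.889), a difference whose sign turned in several alternatives.

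*Slc5a3* (ENSMUSG00000089774) had 689, 958, 859 and 595 normalised counts in WT and 1302, 2031, 747, 636 and 854 in Dp1Tyb. Dp1Tyb replicates 1 and 2 were above all WT cultures, and replicates 3 to 5 lay inside the WT range. The means were 775 ± 164 (SD, n = 4) and 1114 ± 572 (SD, n = 5). The fold change was 1.44 (95% interval 0.862 to 2.40), 0.52 on the log2 scale with a standard error of 0.33 (edgeR, adjusted p = 0.9997). It was not distinguishable from no change, and its interval also covered 1.5-fold. The exact permutation test gave p = 0.325, and within set 2 the log2 difference was 0.27 (exact permutation test, p = 0.771). Without Dp1Tyb replicate 2, the log2 fold change was 0.19 with a standard error of 0.23. Dp1Tyb replicates 1 and 2 also had the lowest sums of macrophage markers, 530 and 377. Dp1Tyb replicate 2 had the highest sum of muscle markers and the lowest of fibroblast markers, though the most *Vim* of its genotype. The part of these in the *Slc5a3* values was not tested.

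*Mrps6*, which shares its start region with *Slc5a3*, had 454, 907, 779 and 588 normalised counts in WT and 1106, 1856, 826, 817 and 888 in Dp1Tyb. The same 2 Dp1Tyb cultures were above all WT cultures. The log2 fold change was 0.69 with a standard error of 0.287 (edgeR, adjusted p = 0.9997), and 0.42 without Dp1Tyb replicate 2. The ratio of *Slc5a3* to *Mrps6* was 1.52, 1.06, 1.10 and 1.01 in WT and 1.18, 1.09, 0.904, 0.779 and 0.962 in Dp1Tyb. It was thus below 1 in 3 Dp1Tyb cultures and in no WT culture. The log2 ratio was lower by 0.25 in Dp1Tyb (log2 difference -0.25, exact permutation test, two-sided, p = 0.19, adjusted p = 0.571), which was within the spread between cultures. Without WT replicate 1 the difference was -0.12.

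**Figure D2:**
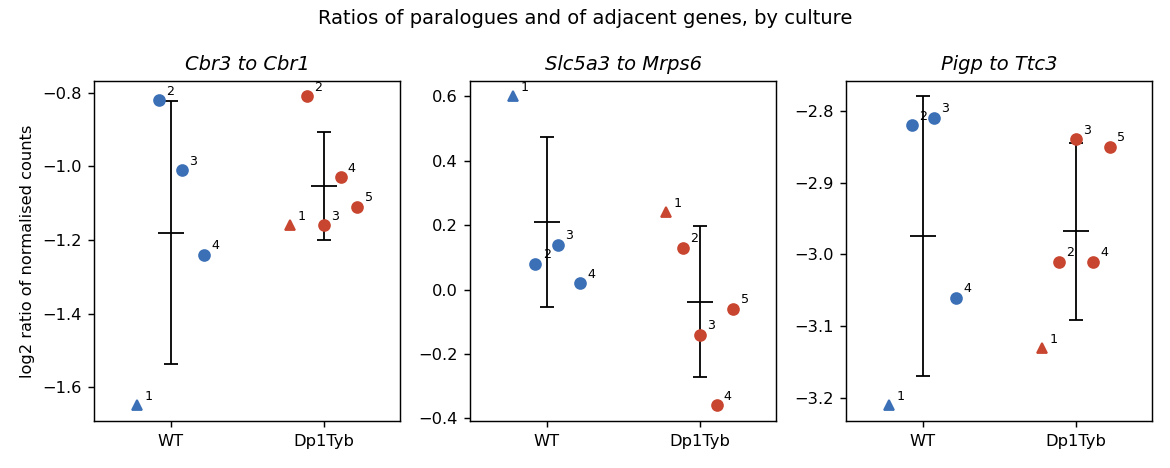
Log2 ratio of normalised counts in each culture for *Cbr3* to *Cbr1*, *Slc5a3* to *Mrps6* and *Pigp* to *Ttc3*, with WT in blue, Dp1Tyb in red, replicate numbers beside the points, triangles for set 1, circles for set 2 and black bars for the mean ± SD (n = 4 and 5). The genotypes overlap in all 3 ratios, and WT replicate 1 lies at an end of the WT range in each, at -1.65, 0.60 and -3.21.

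Per length, *Cbr1*, *Pigp* and *Cbr3* were above *Slc5a3* and *Hlcs* in every culture, on either length. Over all annotated exons, WT levels of the first 3 were 11.4, 11.0 ± 1.43 and 10.5 RPKM (SD, n = 4), which did not differ beyond their spread. Over the longest protein-coding transcript, *Cbr1* at 23.6 and *Pigp* at 22.6 ± 2.96 RPKM (SD, n = 4) were alike within their spread and above *Cbr3* at 11.2 RPKM. *Slc5a3* was at 2.73 ± 0.545 RPKM in WT and 3.80 ± 1.91 RPKM in Dp1Tyb on either length (SD, n = 4 and 5). *Hlcs* was at 1.45 ± 0.126 RPKM in WT over all exons, below the range of *Slc5a3*, and at 2.40 ± 0.213 RPKM over the longest transcript, within that range of 2.06 to 3.29 RPKM. In Dp1Tyb, *Hlcs* was at 2.15 ± 0.325 and 3.58 ± 0.542 RPKM (SD, n = 5) on the 2 lengths, and its range overlapped that of *Slc5a3* on both. The transcripts in use were not measured, so the order within the upper 3 and the lower 2 genes rests on the length chosen.

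Read against the ratio of gene copies, 3 to 2, the 95% intervals of all 5 genes covered 1.5-fold, or 0.58 on the log2 scale, and that of *Slc5a3* alone also covered 1. The median log2 fold change of the 5 genes was 0.52. The other 84 tested genes of the duplicated region had a median of 0.59 with quartiles of 0.45 and 0.69, and 78 of them were above 0, while the median over all tested genes was 0.003. By log2 fold change among the 89 tested genes of the region, *Hlcs* ranked 36, *Cbr3* 38, *Cbr1* 56, *Slc5a3* 57 and *Pigp* 68 from the highest. Of the other 84 genes, 21 (25%) were called, against 1 of the 5 genes here. In normalised counts, 42 (50%) had all Dp1Tyb cultures above all WT cultures, against 4 of the 5, where *Pigp* depended on the scaling. The same lack of overlap was found for 0.686% of all tested genes. At an unadjusted p below 0.05, the edgeR test took 4 of the 5 genes and 3.13% of all tested genes in either direction. In each fit with other settings or without a culture, all 5 fold changes were above 1.

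**Figure D3:**
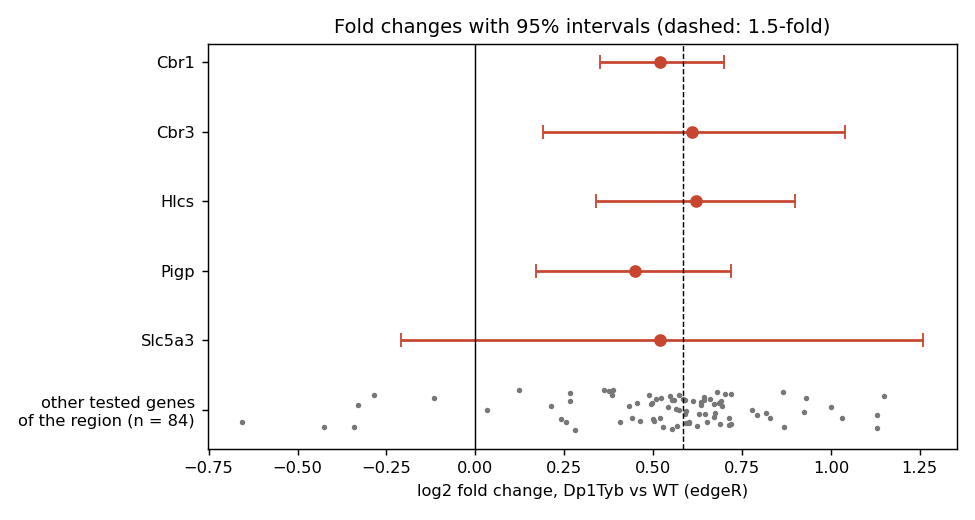
Log2 fold change of Dp1Tyb vs WT MEFs (edgeR, horizontal axis) for the 5 genes, with bars for the 95% interval, and for the other 84 tested genes of the duplicated region as grey points spread vertically for visibility. The solid line marks no change and the dashed line 1.5-fold (0.58), which all 5 intervals cover, and that of *Slc5a3* runs from -0.21 to 1.26.

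Genes next to these 5 had fold changes in the same direction. *Setd4*, a lysine methyltransferase gene 1.79 kb from *Cbr1*, had a log2 fold change of 0.67 (edgeR, adjusted p = 0.313). *Dop1b*, 20.9 kb beyond *Cbr3*, had 0.44 (adjusted p = 0.621). *Sim2*, a transcription factor gene 1.85 kb from *Hlcs*, had 1.13 with a standard error of 0.472 (adjusted p = 0.9997). *Atp5o*, a subunit of the mitochondrial ATP synthase and the nearest tested gene before *Slc5a3* at 127 kb, had 0.59 (adjusted p = 0.0717). None of these 4 neighbours passed the adjusted threshold in this test, but DESeq2 with its defaults called *Setd4* (adjusted p = 0.00628) and *Atp5o* (adjusted p = 4.81e-05), and edgeR with the culture set as a covariate called *Atp5o* (adjusted p = 0.0253).

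Expressed as the deviation of a culture from the mean of its genotype in log2 units, Dp1Tyb replicate 2 was at 1.00 for *Slc5a3* and 0.29 for *Cbr3* but at -0.38 for *Hlcs* and -0.31 for *Pigp*. WT replicate 2 had the same signs, at 0.33, 0.42, -0.12 and -0.25. Over the 9 cultures, the deviations of *Hlcs* correlated with those of *Pigp* at r = 0.83 and with those of *Slc5a3* at r = -0.958, and *Pigp* and *Slc5a3* were at r = -0.786. *Slc5a3* and *Mrps6* were at r = 0.894, *Cbr1* and *Cbr3* at r = 0.682, and *Cbr3* and *Ttc3* at r = -0.915, while *Cbr1* and *Hlcs* were at -0.0852. Without the 2 cultures numbered replicate 2, over 7 cultures, *Hlcs* and *Slc5a3* were still at r = -0.89, *Cbr3* and *Ttc3* at r = -0.85, *Slc5a3* and *Mrps6* at r = 0.702 and *Cbr1* and *Cbr3* at r = 0.674, while *Hlcs* and *Pigp* were at r = 0.487 and *Pigp* and *Slc5a3* at r = -0.43. *Cbr1* and *Hlcs* moved to r = 0.356, and *Cbr1* and *Pigp* from r = 0.0314 to r = 0.693. These are descriptions of few points that share libraries and scaling, and were not tested. Both replicates 2 also had the most *Acta1*, the lowest fibroblast sums and the most *Vim* of their genotype. The part of these in the deviations was not tested.

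**Figure D4:**
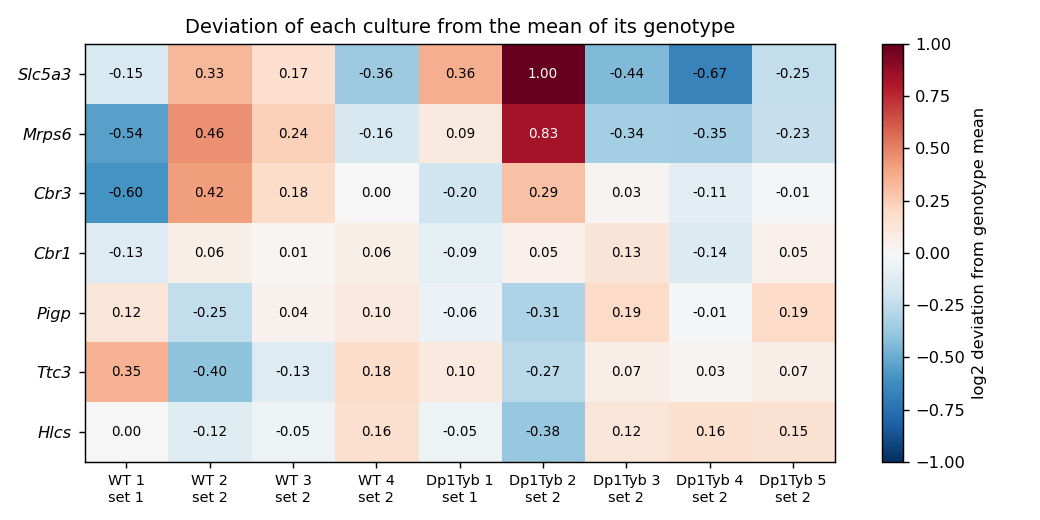
Deviation of each culture from the mean of its genotype, in log2 units of the normalised count (colour scale from -1 to 1, values printed in the cells), for the 5 genes and for *Mrps6* and *Ttc3*. Replicate 2 of both genotypes is red for *Slc5a3*, *Mrps6* and *Cbr3* and blue for *Pigp*, *Ttc3* and *Hlcs*, and *Cbr1* stays between -0.14 and 0.13 in all cultures.

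The genes whose levels ran most like those of each of the 5 genes were found by Pearson's r of log2(normalised count + 1) over the 9 cultures, among 14445 genes, as a description. This r includes the difference between the genotypes. For deviations from the genotype means, r of the pairs below was between 0.838 and 0.98. *Cbr1* was most like *Vps26c* (r = 0.988), which codes for a subunit of an endosomal sorting complex, and *Psmg1* (r = 0.986), which codes for a proteasome assembly chaperone. Both lie in the duplicated region. *Cbr3* was most like *Leprotl1* (r = 0.946), on chromosome 8, and *Cct8* (r = 0.94), a chaperonin subunit gene of the region. *Hlcs* was most like *Bach1* (r = 0.978), a transcriptional repressor gene of the region, and *Slc25a40* (r = 0.968), a mitochondrial carrier gene on chromosome 5. *Pigp* was most like *Tmem86a* (r = 0.949), on chromosome 7, and *Bach1* (r = 0.938). *Slc5a3* was most like *Itgb7* (r = 0.963), an integrin gene on chromosome 15 with between 9 and 50.9 normalised counts, and *Lipt1* (r = 0.953), a lipoyltransferase gene on chromosome 1. The log2 fold change of *Itgb7* was 0.79, and 0.19 without Dp1Tyb replicate 2.

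Lists of other genes of the same 4 pathways or of related reactions, all outside the duplication, are given for comparison. Since 0.165% of all tested genes were called higher and 3.13% had an unadjusted p below 0.05 in either direction, counts of 0 in lists of 8 to 24 genes are near the background and say nothing particular about these pathways. Of 13 other genes listed under carbonyl reduction, 13 were tested and 0 passed edgeR's adjusted threshold or an unadjusted p below 0.05. Of these, 10 were above 0 and 3 below, with a median log2 fold change of 0.04, beside 0.003 over all genes. Their lowest p was that of *Hsd11b1*, which codes for the enzyme that reduces cortisone to cortisol and its rodent counterpart. It had 47.1 ± 38.8 normalised counts in WT (SD, n = 4) and 26.1 ± 8.09 in Dp1Tyb (SD, n = 5). Its log2 fold change was -0.84 (edgeR, adjusted p = 0.9997), and moved both ways, to -0.23 without WT replicate 3 and -1.2 without WT replicate 1. *Adh5*, the glutathione-dependent formaldehyde dehydrogenase gene, followed with a log2 fold change of 0.10 (edgeR, adjusted p = 0.9997). The remaining members include *Cbr2* and *Cbr4*, carbonyl reductase genes on other chromosomes, at 0.07 and -0.03. The list is broad and also holds *Ptgr1* and *Por*, which are not carbonyl reductase genes, at 0.07 and 0.13.

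For biotin use, a list of 9 genes for the biotin-dependent carboxylases, for biotinidase and for the biotin transporter, 0 of 9 tested passed either threshold in edgeR, and the median log2 fold change was -0.01 with a range from -0.21 to 0.13. *Btd*, the biotinidase gene, was at -0.18 (edgeR, adjusted p = 0.9997) and *Pccb*, a propionyl-CoA carboxylase subunit gene, at -0.21. For GPI anchor synthesis, 24 of 25 other genes were tested and *Pigy* was not matched. Of the 24, 12 were above 0 and 12 below, 0 passed either threshold in edgeR, and the range from -0.23 to 0.17 was narrow. *Pigo*, which codes for an ethanolamine phosphate transferase, was at -0.23 (edgeR, adjusted p = 0.9997) and *Pign*, another such transferase gene, at 0.14. For myo-inositol and osmolytes, 8 of 11 other genes passed the filter on low counts and 0 of these passed either threshold in edgeR. Their median was 0.02, with *Impa1* and *Impa2*, which code for inositol monophosphatases, at 0.10 and -0.14 (edgeR, adjusted p = 0.9997 for both). *Slc5a11*, *Miox* and *Slc6a12* did not pass the filter and were not tested. DESeq2 called 0 genes of these lists as well. The values of single list genes rested on few cultures. Without WT replicate 1, *Adh5* was at 0.04, *Btd* at -0.09, *Pigo* at -0.13, *Pccb* at 0.0004, *Impa1* at 0.05 and *Impa2* at -0.04. Without Dp1Tyb replicate 2, *Adh5* was at 0.05, *Pigo* at -0.14, *Pccb* at -0.09, *Impa1* at -0.01 and *Impa2* at -0.02. Without WT replicate 2, *Pigo* was at -0.35, *Pccb* at -0.34, *Impa1* at 0.16 and *Pign* at 0.07, and *Pign* was at 0.22 without WT replicate 4.

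**Figure D5:**
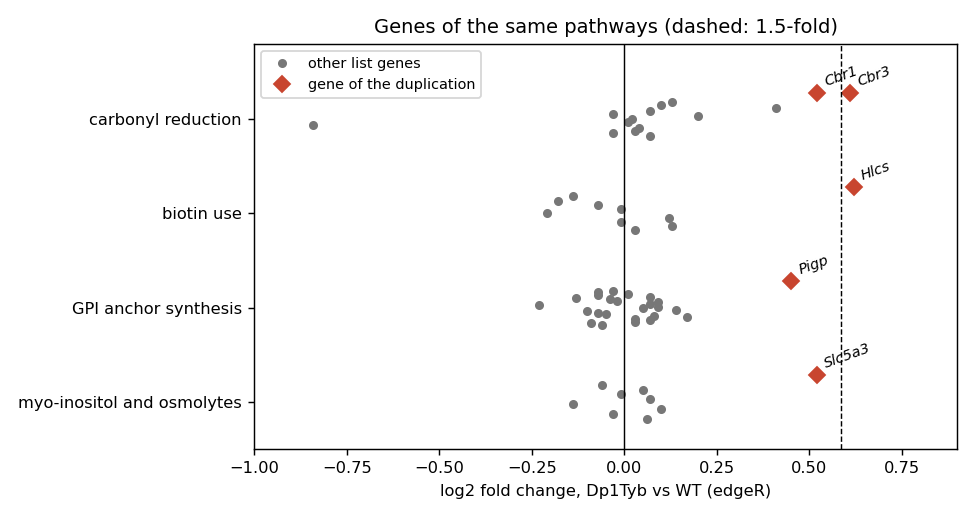
Log2 fold change of Dp1Tyb vs WT MEFs (edgeR, horizontal axis) for the genes of the 4 pathway lists, with red diamonds for the 5 genes of the duplication and grey points for the 54 other genes tested. The grey points have medians between -0.01 and 0.04 and the diamonds lie between 0.45 and 0.62. The solid line marks no change and the dashed line 1.5-fold.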

How the data were processed

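RNA of 9 MEF cultures was sequenced by the authors as 100-base paired-end reads from TruSeq Stranded mRNA libraries. They trimmed the reads (Trim Galore), mapped them to GRCm38 (TopHat2 2.0.12) and counted uniquely mapped reads per gene (HTSeq). Only the deposited counts, not normalised, were used. The authors' normalised values and their DESeq2 1.6.3 fold changes and p-values for Dp1Tyb vs WT were left out. Symbols, positions and exon lengths came from GENCODE M21 (42462 of 43629 genes matched), promoters from RefSeq.

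The fit used edgeR 4.0.16 (R 4.3.3) with TMM, filterByExpr, the quasi-likelihood test, two-sided, and no covariate. DESeq2 1.42.0 was an alternative. The test was checked on simulated counts. Permutation tests enumerated 126 relabelings (35 in set 2), with a pseudocount of 1. Cultures came from separate embryos and were grouped by title. Floors (3 counts) cover counting error only. Alternatives were other scalings and filters, the set as covariate, set 2 alone, the replicate block and each culture left out. Named genes were the 5 genes, the nearest tested gene on either side, the 2 tested genes with the highest r, and the 2 other list genes with the lowest p where none was called. The genes and lists were chosen with earlier results of these data known.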

Additional observations from a re-analysis of the deposited data

Results flagged for a closer look

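In 20 groups of 4 or 5 values examined for a culture apart from the others by Dixon's criterion, 2 held one. Chance gives about 1 in 20 for independent groups, but these groups share cultures. The deviations of the 2 genes below, *Mrps6* and *Ttc3*, correlated at r = -0.848 over the 9 cultures. Dp1Tyb replicate 2 had 1856 normalised counts of *Mrps6*, above the other 4 Dp1Tyb cultures by 0.722 of the range of the group. The same culture had 4976 normalised counts of *Ttc3*, below the others by 0.776 of the range. It was also the highest for *Slc5a3* and the lowest for *Hlcs* and *Pigp*, without passing the criterion there.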

How the results depend on the processing

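Across all genes, edgeR called 24 genes. DESeq2 called 68 with its defaults and 67 with its beta prior, set 2 alone gave 1, the replicate block 0 (800 at an unadjusted p below 0.05), and single cultures left out gave between 2 and 26. Without both cultures numbered replicate 2, an alternative chosen after seeing the data, 10 were called. Of the 5 genes, 1 was called. DESeq2 with either setting called 2, single cultures left out gave 0 or 1, and 0 were called with no filter, in set 2, with the block and without both replicates 2. The log2 fold change of *Cbr1* lost its call at 0.52 with no filter (adjusted p = 0.0655), 0.51 in set 2 (0.177), 0.51 with the replicate block (0.137), 0.53 without both replicates 2 (0.152) and between 0.48 and 0.56 without single cultures. *Hlcs* gained a call at 0.63 with DESeq2's defaults, at 0.51 with its beta prior (adjusted p = 0.00324) and without Dp1Tyb replicate 2, in a range of 0.58 to 0.70 over single cultures left out. Of the neighbours, *Setd4* and *Atp5o* gained a call with both DESeq2 settings and *Atp5o* also with the set as covariate. The cause was not tested. The log2 fold change of *Slc5a3* was 0.19 to 0.67 without single cultures and 0.31 without both replicates 2.

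The difference in the log2 ratio of *Cbr3* to *Cbr1* turned to -0.0039 in set 2 and ranged from -0.03 to 0.25 without single cultures. That of *Slc5a3* to *Mrps6* ranged from -0.32 to -0.12. That of *Pigp* to *Ttc3* turned to -0.03 in set 2 and -0.02 with the block, ranged from -0.07 to 0.06 and was 0.07 without both replicates 2. *Hsd11b1* was at -0.39 with the block and at -1.1 in set 2. *Pccb* ranged from -0.34 to 0.0004 (without WT replicate 1) and *Impa1* from -0.01 (without Dp1Tyb replicate 2) to 0.16. Same-numbered cultures came from different embryos. Their deviations correlated at 0.259, 0.741, 0.0315 and 0.378, and 1 of the 4 WT cultures correlated best with its own number, so the numbers were not taken to pair them. With 4 and 5 cultures, the intervals of all 5 genes left 1.5-fold possible.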
